A study of Mus musculus with 46 samples.

Results

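The genes described here encode 10 core transcription factors of naive pluripotency: Esrrb, Tfcp2l1, Klf2, Klf5, Prdm14, Tbx3, Nr5a2, Zfp42, Sall4 and Nr0b1. They were taken by name from the protein-coding genes of the mouse genome (mm9, GENCODE vM1 annotation), so they are 10 of 22380 genes, and the rule is a list of names with no limit on a measured value. For each gene, all peaks that overlapped the stretch from 1 kb before its start to 1 kb after its end were collected in every library. None of these windows held another protein-coding gene. None of the 10 genes is among the factors delivered to the cells by virus.

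Naive pluripotency is the state of the inner cell mass of the blastocyst and of mouse embryonic stem cells grown with leukemia inhibitory factor (LIF). It is held by a network of transcription factors that activate each other and act beside Oct4, Sox2 and Nanog, and fibroblasts express few of them, so that their activation marks the late part of reprogramming. H3.3 is a histone H3 variant that is placed into chromatin outside replication, trimethylation of H3 at lysine 4 (H3K4me3) marks promoters, and trimethylation at lysine 36 (H3K36me3) marks the bodies of transcribed genes.

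The study followed these 3 marks by ChIP-Seq during the conversion of fibroblasts of mouse embryos (MEFs) into induced pluripotent stem cells (iPSCs) or hematopoietic cells. The MEFs came from midgestation embryos that carry an IRES-EGFP cassette in the Oct4 gene, and all reprogramming cells after D0 received retroviral pMXs-Oct4, Sox2, Klf4 and c-Myc and grew without feeders in medium with LIF, CHIR99021, bFGF and ascorbic acid. The starting MEFs are called D0, and the whole culture was taken at day 3 (D3). Sorting used the fibroblast antigen Thy-1 (T) at days 6 and 9 and SSEA-1 (S), an antigen of pluripotent cells, at days 12 and 16. Cells that had lost Thy-1 (D6T-, D9T-) or gained SSEA-1 (D12S+, D16S+) formed the successful route to the fully reprogrammed iPSCs, and their counterparts D6T+, D9T+, D12S- and D16S- formed the unsuccessful fractions. ESD3, a line of mouse embryonic stem cells that received no factors, was the pluripotent reference for H3.3. In the transdifferentiation series, MEFs freed of hematopoietic cells received constitutive retroviral mouse Scl with human Lmo2, Runx1 and Bmi1 and were later kept on OP9 stromal cells, and H3.3 was profiled in the MEF library, on day 4 (D4) and in fully transdifferentiated cells sorted as cKit+ or cKit-.

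Peak lists came from 30 libraries, of which 16 were H3.3 and 7 each were H3K4me3 and H3K36me3. Every group had 1 library, so no difference below could be set against a spread between replicates and no test was made. The value of a gene is its score, the sum of the normalized tag counts of its peaks, in tags per 10 M tags of the library. Intervals given with a score or a ratio are 95% intervals that cover counting error only. A gene was called higher in a library when its score was at least 2 times that of the other library, a gene without a peak counting as 0. The absence of a peak says that no region passed the authors' limits, not that H3.3 was absent. D0 and MEF were both unconverted fibroblasts, so the distance between them gives a rough sense of how far 2 libraries of like cells lay apart: 4 of the 10 genes were higher and 2 lower in MEF than in D0, against 4.7% of all genes higher and 43.7% lower.

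H3.3 libraries held 18.7 to 91.8 M tags and 25637 to 108179 peaks, and the share of tags in peaks ranged from 1.65% (cKit+) to 37.2% (D4). The cKit+ and cKit- libraries stood apart, with a peak on only 33.2% and 31.8% of all genes, against 43.3% to 72.1% in the other H3.3 libraries. The labels of the end points were checked against markers that are not among the 10 genes. All 10 pluripotency markers (Nanog, Pou5f1, Sox2 and others) carried H3.3 peaks in iPSCs and in ESD3, against 4 in D0 and 3 in MEF. All 12 fibroblast markers (collagens, Thy1, Twist1 and others) had peaks in D0 and in MEF, and 5 and 3 of them in iPSCs and ESD3, where their median score was 0. In the cKit+ library 6 of 10 hematopoietic markers had a peak, against 6 in MEF, with a summed score of 151 against 850, so H3.3 peaks did not set that library apart as hematopoietic. Pou5f1 had a score of 5742 in iPSCs and 2841 in D16S+ against 178 in ESD3. It was also delivered by virus, and the part of the vector in these values was not tested.

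The sequences below belong to the places where H3.3 or H3K4me3 on these genes was seen to begin, and they come from the mouse genome on the build of the files (mm9). Each promoter is the 250 bases before an annotated transcript start, and each peak is the 300 bases around the middle of the earliest H3.3 peak of that gene on the successful route; all are written 5′ to 3′ on the strand of the gene, and none of these windows touches an annotated exon. Capitals mark matches, on either strand, to 4 motifs that are known for factors of the network: TCAAGGTCA (bound by Esrrb and Nr5a2), ATGCAAAT (the octamer bound by Oct4), CCCCACCC (bound by Klf factors) and a pair of CCAG with 6 bases between them (bound by Tfcp2l1), with overlaps between motifs allowed.
Esrrb, start at 109 kb into the gene, chr12:87810817-87811066, plus strand: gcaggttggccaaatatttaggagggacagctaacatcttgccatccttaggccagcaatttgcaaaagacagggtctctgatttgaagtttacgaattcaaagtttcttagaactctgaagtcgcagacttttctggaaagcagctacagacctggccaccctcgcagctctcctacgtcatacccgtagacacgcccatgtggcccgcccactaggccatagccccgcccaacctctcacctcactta
Nr5a2, start at 6.8 kb into the gene, chr1:138850208-138850457, minus strand: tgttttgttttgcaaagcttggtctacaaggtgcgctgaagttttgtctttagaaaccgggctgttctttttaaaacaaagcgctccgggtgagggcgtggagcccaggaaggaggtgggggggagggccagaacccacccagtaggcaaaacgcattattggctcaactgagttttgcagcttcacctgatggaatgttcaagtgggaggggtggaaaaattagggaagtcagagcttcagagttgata
Zfp42, gene start, chr8:44392364-44392613, minus strand: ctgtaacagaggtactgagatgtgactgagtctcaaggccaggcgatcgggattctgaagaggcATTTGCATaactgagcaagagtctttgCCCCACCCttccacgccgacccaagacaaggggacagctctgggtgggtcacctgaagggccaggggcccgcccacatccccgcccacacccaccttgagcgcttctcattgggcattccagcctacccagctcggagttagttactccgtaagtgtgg
Nr0b1, gene start, chrX:83436853-83437102, plus strand: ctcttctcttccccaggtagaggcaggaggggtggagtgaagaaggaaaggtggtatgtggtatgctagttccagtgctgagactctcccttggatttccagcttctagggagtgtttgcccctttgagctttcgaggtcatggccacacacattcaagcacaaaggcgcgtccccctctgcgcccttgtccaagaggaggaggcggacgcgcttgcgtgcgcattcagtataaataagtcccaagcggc
Tfcp2l1, intronic H3.3 peak of D6T-, chr1:120546951-120547250, plus strand: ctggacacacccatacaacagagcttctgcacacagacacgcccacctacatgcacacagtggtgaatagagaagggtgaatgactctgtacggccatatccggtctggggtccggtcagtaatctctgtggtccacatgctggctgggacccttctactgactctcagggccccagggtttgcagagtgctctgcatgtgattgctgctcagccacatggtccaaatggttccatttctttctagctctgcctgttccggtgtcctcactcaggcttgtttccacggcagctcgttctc
Sall4, intronic H3.3 peak of D3, chr2:168587913-168588212, minus strand: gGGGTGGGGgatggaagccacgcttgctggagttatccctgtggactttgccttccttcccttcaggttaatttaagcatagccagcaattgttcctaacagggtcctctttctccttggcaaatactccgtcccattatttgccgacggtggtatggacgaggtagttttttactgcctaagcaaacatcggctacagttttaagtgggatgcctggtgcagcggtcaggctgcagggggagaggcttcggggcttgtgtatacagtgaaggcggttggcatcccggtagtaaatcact

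The Zfp42 promoter held both an octamer and a Klf motif. The octamer was found in 1.31% of 69978 promoter windows, from all annotated transcripts of protein-coding genes, and the Klf motif in 9.59%. The Klf motif was also found in the Sall4 peak window, and it occurred in 5.50% of the 81542 windows of the same length around iPSC H3.3 peaks. The Esrrb and Nr5a2 motif (0.384% of promoters) and the Tfcp2l1 motif (2.89%) were found in none of the printed windows. Over all 25 promoter windows of the 10 genes, 4 held the Klf motif, 1 the octamer and 0 the others. These matches describe letters in short windows and say nothing about binding.

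H3.3 peaks lay on more of the 10 genes, and with higher scores, in pluripotent cells than in D0. A peak lay on 4 genes in D0 (61.8% of all genes had one), on 7 in the other fibroblast library, MEF (53.2%), with scores of 5.68 to 31.0, on 9 in iPSCs (61.1%) and on 8 in ESD3 (52.1%). Between these ends the count was 5 in D3 (57.3%), 5 in D6T- (60.6%), 6 by D9T- (58.3%), 7 by D12S+ (50.2%) and 9 by D16S+ (43.3%). The unsuccessful fractions held 3 on day 6 (53.1%) and 5 on each later day (54.9%, 63.4% and 56.6%). The D3 count was 1 when the lists were cut to equal length, and the D9T- count was 3 when peaks had to stand at least 4-fold over input. The median score of the 10 genes was 0 in D0, 126 in iPSCs and 115 in ESD3, while the median of all genes was 18.0, 13.4 and 6.48. Between D0 and iPSCs 7 of the 10 genes were higher and 0 lower, against 17.4% of all genes higher and 29.4% lower. The same 7 genes, Esrrb, Tfcp2l1, Klf5, Prdm14, Nr5a2, Zfp42 and Sall4, were higher in ESD3 than in D0, where 9.97% of all genes were higher and 44.9% lower, and Klf2 was the only one of the 10 that was lower. Both comparisons share the D0 library. ESD3 against iPSCs gave 0 genes higher and 3 lower (Klf2, Prdm14 and Sall4), against 6.24% and 35.9% of all genes. The lower calls of Klf2 in ESD3 rest on a missing peak, and the nearest one lay just outside the window, 1.06 kb from the gene. D3 against D0 gave 1 higher (Sall4) and 3 lower (Esrrb, Klf2 and Tbx3), against 6.91% and 26.8%. Only Klf2, Tbx3 and Nr0b1 stayed within the 2-fold limit in iPSCs. With a peak required to stand at least 4-fold over input, which 55.1% of D0 peaks and 22.6% of iPSC peaks did, 3 genes were higher (Prdm14, Nr5a2 and Sall4) and 3 lower (Klf2, Klf5 and Tbx3), in place of 7 and 0.

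**Figure D1:**
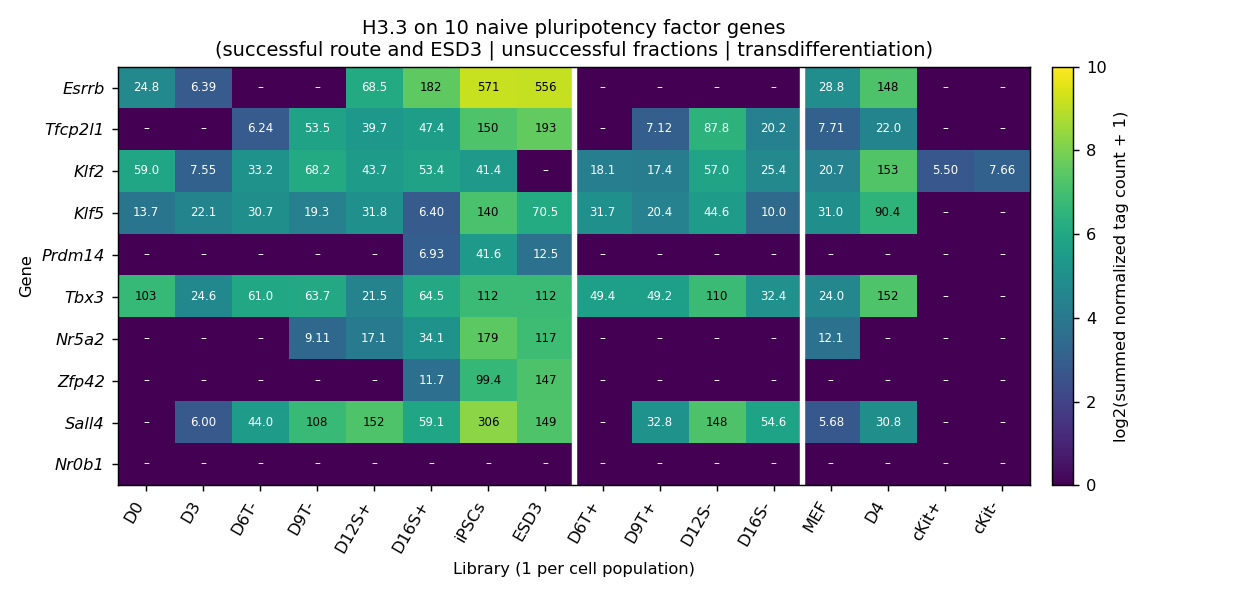
H3.3 score (sum of normalized tag counts, tags per 10 M) of the 10 genes in the 16 libraries, with the score written in each cell, a dash where no peak was called, and colour on a log2(score + 1) scale. The left block runs from D0 to iPSCs and ESD3, the middle block holds the 4 unsuccessful fractions and the right block the transdifferentiation series; Prdm14 and Zfp42 have scores only in D16S+, iPSCs and ESD3.

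Esrrb, an orphan nuclear receptor at the centre of the network (chr12:87702067-87862578, plus strand), had the highest summed H3.3 score of the 10 genes in pluripotent cells. Its H3.3 score was 24.8 in D0 and 6.39 in D3. No peak was called in D6T- and D9T-, and the score was then 68.5 in D12S+, 182 by D16S+, and stood at 571 in iPSCs and 556 in ESD3. The iPSC score was 23.0 times that of D0 (18.0 to 29.7). When only peaks at least 4-fold over input counted, the scores were 34.2 and 18.4, and the ratio of 1.87 no longer passed 2-fold. None of the 4 unsuccessful fractions had an H3.3 peak anywhere on the gene, and in the 8 libraries without a peak the nearest one lay at least 30.9 kb from the gene.

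The H3.3 score was spread differently over Esrrb in late and early cells. Transcripts begin at the gene start, near 60.5 kb, at 109 kb and at 143 kb. The stretch from the 109 kb start to the end held all of the D12S+ score, 91.2% of the D16S+ score, 76.9% in iPSCs and 79.4% in ESD3, against 28.4% in D0 and 18.6% in MEF. The D0 and MEF shares rest on only 3 and 2 peaks. Before the 60.5 kb start, iPSCs (49.4) and ESD3 (32.65) also held more than D0 (17.8) and MEF (23.4). In D12S+ the strongest peak, with a score of 36.7, lay within an intron at chr12:87838197-87840476, about 136 to 138 kb into the gene, and peaks of D16S+, iPSCs and ESD3 overlapped it while no other H3.3 library had a peak there.

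H3K4me3 on Esrrb was also higher past the 109 kb start in late cells. In D0, D3, D6T- and D9T- most of it sat at the start near 60.5 kb, with 76.5, 80.1, 65.2 and 47.3 at that start. At the 109 kb start no H3K4me3 peak was called through D9T-, and the values were then 69.8 in D12S+, 55.7 by D16S+ and 258 for iPSCs. The 60.5 kb start still carried 47.6 in iPSCs, so the 109 kb start was added to it. Over the whole gene, the H3K4me3 score was 140 in D0 and 666 in iPSCs.

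**Figure D2:**
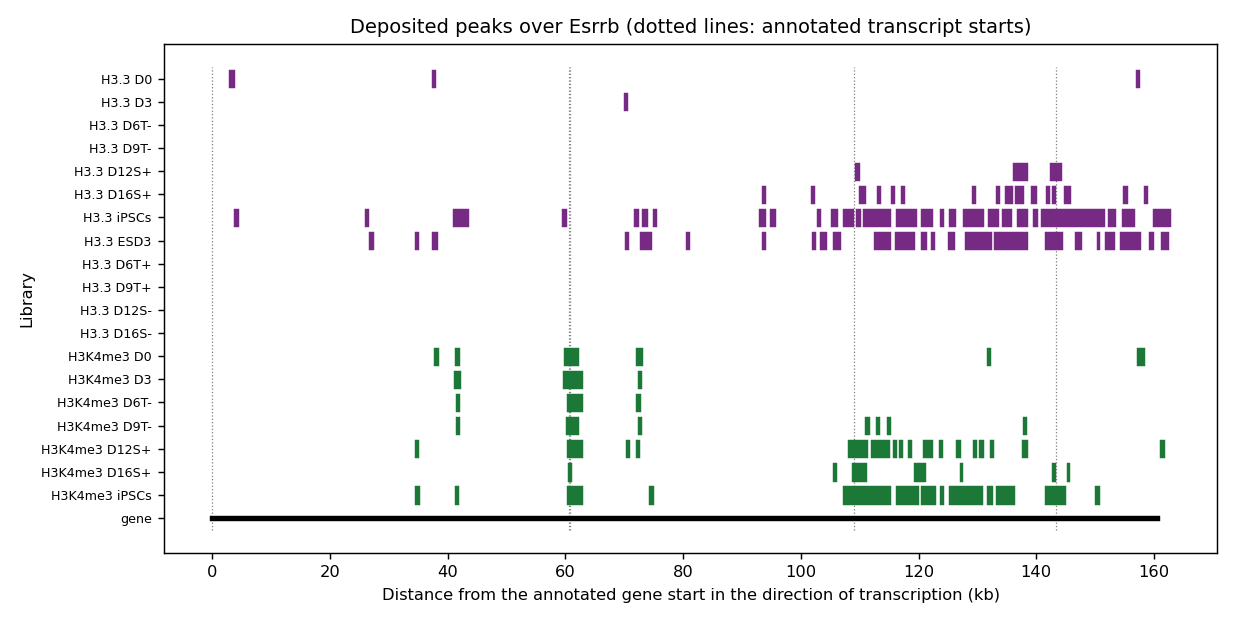
Deposited peaks over Esrrb in 12 H3.3 libraries (purple) and 7 H3K4me3 libraries (green), drawn by distance from the gene start in kb, with annotated transcript starts as dotted lines. Most of the H3K4me3 score of D0 to D9T- lies near 60.5 kb, though 4 of the 7 peaks of D9T- lie past 109 kb, and H3.3 of D12S+, D16S+, iPSCs and ESD3 clusters past 109 kb.

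Nr5a2, a nuclear receptor that can replace Oct4 among the reprogramming factors (chr1:138740161-138857004, minus strand), had H3.3 late on the successful route. No peak was called in D0, D3 and D6T-, and the score was then 9.11 in D9T- and 17.1 in D12S+. D16S+ cells had 34.1, iPSCs 179 and ESD3 117. All 4 unsuccessful fractions were without a peak. The earliest peak, chr1:138849758-138850393 in D9T-, spanned the inner transcript start at 6.8 kb, and each later library of the route had a peak over it. The MEF library also had a peak over this site, with 5.78 there and 12.1 on the whole gene, so not every fibroblast library lacked H3.3 there.

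H3K4me3 was already present at the inner Nr5a2 start in D0. Its score at this start was 27.0 in D0, 33.4 in D3 and 51.1 in D6T-. It was 62.3 by D9T-, 123 by D12S+ and 268 in iPSCs, with no peak there in D16S+. The outer start at the 5′ end of the gene had no peak of H3.3 or H3K4me3 within 500 bp in any library.

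**Figure D3:**
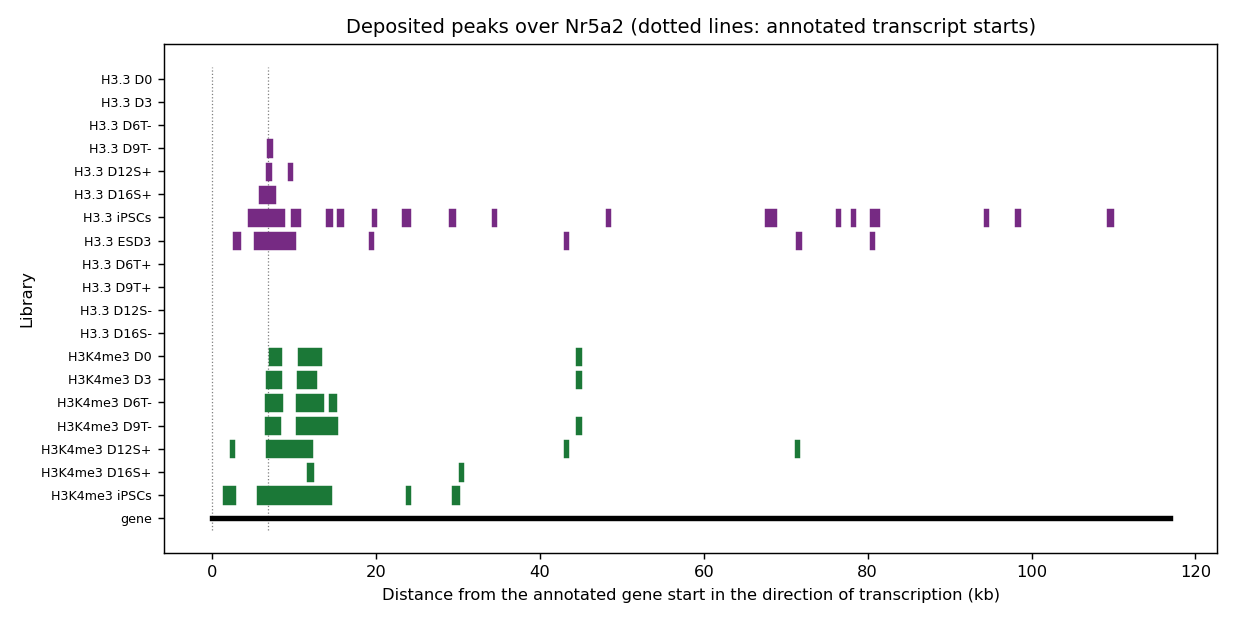
Deposited peaks over Nr5a2, drawn as for Esrrb by distance from the gene start in kb. H3.3 (purple) begins at the inner start at 6.8 kb in D9T- and spreads to 16 peaks in iPSCs, while H3K4me3 (green) lies at and just past that start from D0 on.

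Nr0b1 (Dax1), a nuclear receptor without a DNA-binding zinc finger that restrains Oct4 and Nr5a2 (chrX:83437103-83441286, plus strand), had no H3.3 peak in any of the 16 libraries. This was also the case for 20% of all genes, and the nearest H3.3 peak lay at least 363 kb away. It did carry H3K4me3: none in D0 and D3, then 65.9 in D6T- and 44.1 in D9T-. D12S+ cells had 16.6, D16S+ cells 9.80 and iPSCs 26.0. The D6T- peak stood 20.8-fold over input at the gene start. Of all 22380 genes, Nr0b1 was the only one (0.00447%) with H3K4me3 in every library from D6T- to iPSCs, none in D0 and D3, and no H3.3 peak in 16 libraries, a combination that was put together after its values were seen.

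Tfcp2l1, a grainyhead-like factor that acts below LIF and Stat3 (chr1:120524522-120581744, plus strand, listed as Tcfcp2l1 in the annotation), was without H3.3 peaks in D0 and D3. Its score was 6.24 in D6T- and 53.5 in D9T-. D12S+ cells had 39.7, D16S+ cells 47.4, iPSCs 150 and ESD3 193. The unsuccessful fractions had it as well: D6T+ cells had no peak, D9T+ cells 7.12, D12S- cells 87.8 and D16S- cells 20.2. The earliest peak lay about 22 kb inside the gene at chr1:120546850-120547350, and peaks of 7 of the 16 libraries overlapped this site, D9T+ and D12S- among them. In MEF and D4, with 7.71 and 22.0, the peak lay at the gene start instead.

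Klf2, a Krüppel-like factor that sustains the naive state and is lowered by Erk signalling (chr8:74842932-74845555, plus strand), did not follow the other genes. Its score was 59.0 in D0, 7.55 in D3 and 33.2 in D6T-. D9T- cells had 68.2, D12S+ cells 43.7, D16S+ cells 53.4 and iPSCs 41.4, and ESD3 had no peak. The D0 peak began past the 3′ end of the gene, at 2.9 kb from the start, and reached 6.9 kb. Counting only the part of each peak inside the window turned the lower iPSC score into a slightly higher one, with a difference of 7.91 in place of -17.6, so the direction for Klf2 depends on where the window ends. In ESD3 the nearest peak lay 1.06 kb from the gene, just beyond the 1 kb flank. With a flank of 5 kb that peak counted, and the genes with a peak in ESD3 went from 8 to 9. The missing Klf2 peak in ESD3, on which its lower calls there rest, thus depends on the window.

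Klf5, a Krüppel-like factor that overlaps in function with Klf2 and Klf4 (chr14:99697910-99712624, plus strand), had H3.3 peaks in all 12 reprogramming libraries. Its score stayed between 6.40 and 31.8 in D0 and along the route to D16S+, and was 140 in iPSCs and 70.5 in ESD3. The unsuccessful fractions spanned a similar range, from 10.0 in D16S- to 44.6 in D12S-. The iPSC score was 10.2 times that of D0 (7.32 to 14.7), and this was lost when peaks had to stand at least 4-fold over input, since then D0 kept 13.7 and iPSCs 0.

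Tbx3, a T-box factor that supports self-renewal and is also active in embryonic limb and other mesenchyme (chr5:120120678-120134733, plus strand), was the gene with the most H3.3 in D0. Its score was 103 in D0, 24.6 in D3 and 61.03 in D6T-. D9T- cells had 63.7, D12S+ cells 21.5, D16S+ cells 64.5, and iPSCs and ESD3 both 112. The strongest D0 peak (60.7) lay across the gene start, and the strongest iPSC peak (86) lay further in, from 6.66 to 12.9 kb, so that equal sums came from different places. Tbx3 and Klf5 were the only genes of the 10 with a peak in all 12 reprogramming libraries, as were 27.9% of all genes.

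Prdm14, a PR-domain factor that limits Fgf signalling and DNA methylation (chr1:13103538-13117244, minus strand), and Zfp42 (Rex1), a zinc finger protein widely used to mark naive cells (chr8:44380422-44392363, minus strand), were the last to gain H3.3. Prdm14 had no peak from D0 to D12S+, then 6.93 in D16S+, 41.6 in iPSCs and 12.5 in ESD3. Zfp42 had no peak from D0 to D12S+, then 11.7 in D16S+, 99.4 in iPSCs and 147 in ESD3. Both lacked H3.3 peaks in all unsuccessful fractions and in all 4 transdifferentiation libraries. For Zfp42 this order depends on the window, since a peak lay 4.75 kb from the gene in D9T- and 4.59 kb in D12S+. In MEF a peak lay 4.72 kb from it. With a flank of 5 kb the count of genes with a peak went from 6 to 7 in D9T- and from 7 to 8 in D12S+.

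The earliest Prdm14 peak lay just before the gene start, at chr1:13117790-13118290, and the earliest Zfp42 peak across the gene start, at chr8:44391970-44392603 next to the promoter printed above. At the D16S+ stage these were weak peaks, 4.34-fold and 3.02-fold over input. In iPSCs the Zfp42 peak across the start had a score of 62.2. The single Prdm14 peak of ESD3 lay elsewhere, 7.58 to 8.57 kb into the gene.

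Sall4, a zinc finger factor that interacts with Oct4 and Nanog (chr2:168573832-168593443, minus strand), was the earliest to gain H3.3 among the genes without a D0 peak in their window. Its score was 6.00 in D3, 44.0 in D6T- and 108 in D9T-. D12S+ cells had 152, D16S+ cells 59.1, iPSCs 306 and ESD3 149. In the unsuccessful fractions the earliest peak came on day 9: D6T+ cells had no peak, D9T+ cells 32.8, D12S- cells 148 and D16S- cells 54.6. The D3 peak lay in an intron about 5 kb from the start, where 8 of the 16 H3.3 libraries and all 7 H3K4me3 libraries had a peak. The MEF library had a peak of 5.68 at the gene start, so a score as low as that of D3 was also found in fibroblasts, at another place. In D0 a peak lay 3.925 kb from the gene. With a flank of 5 kb that peak counted, and the iPSCs minus D0 difference went from 306 to 280. The gain of Sall4 after D0 thus depends on the window.

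Comparison of the fractions sorted on the same day separated the genes into those found in both and those found in the successful fraction only. Prdm14, Nr5a2 and Zfp42 had no H3.3 peak in D0, D3 and any unsuccessful fraction, and a peak in iPSCs and ESD3, as did 1.5% of all genes. Esrrb differed from them by its scattered peaks in D0 and D3. Tfcp2l1, Klf2, Klf5, Tbx3 and Sall4 had peaks in 3 or 4 of the 4 unsuccessful fractions.

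On day 6, 2 genes were higher in the successful fraction (Tfcp2l1 and Sall4) and 0 lower, beside 33.5% of all genes higher and 5.24% lower. On day 9, 4 were higher (Tfcp2l1, Klf2, Nr5a2 and Sall4) and 0 lower, beside 17.7% and 8% of all genes. Scaled to the summed peak score of each library, the counts of the 10 genes were the same on both days, and the share of higher genes among all called genes went from 86.5% to 67.5% on day 6 and from 68.8% to 58.7% on day 9. With the 4-fold limit over input, Klf2 and Sall4 were higher and Klf5 lower on day 6, and Tfcp2l1 and Sall4 were higher and Klf2 and Klf5 lower on day 9. Sall4 had 108 against 32.8 on day 9, a ratio of 3.28 (2.53 to 4.25). Tfcp2l1 had 53.5 against 7.12, a ratio of 7.51 (4.49 to 13.4).

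On day 12 the picture was mixed. Esrrb and Nr5a2 were higher in D12S+, and Tfcp2l1 and Tbx3 were higher in D12S-, with 110 against 21.5 for Tbx3. These libraries differed as a whole: 52.7% of all genes were lower and 2.45% higher in D12S+, and 6.93% of its tags lay in peaks against 22.0% in D12S-. Scaled to the summed peak score of each library, 5 genes (Esrrb, Klf2, Klf5, Nr5a2 and Sall4) were higher in D12S+ and 0 lower, and higher genes made up 25.4% of all called genes in place of 4.45%. Sall4 had 152 and 148, a ratio of 1.03 (0.887 to 1.19), which became 3.26 with the scaling and 4.57 when peaks had to stand at least 4-fold over input. Whether Sall4 passed 2-fold on day 12 thus rests on the processing.

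On day 16, 6 of the 10 genes were higher in the successful fraction and 0 lower, while 5.94% of all genes were higher and 42.4% lower. The 6 were Esrrb, Tfcp2l1, Klf2, Prdm14, Nr5a2 and Zfp42. The ratio was 2.34 (1.59 to 3.43) for Tfcp2l1 and 2.10 (1.49 to 3.00) for Klf2, and the other 4 had no peak in D16S-. The scaling gave 8 genes higher and 0 lower, with higher genes at 30.9% of all called genes in place of 12.3%. The 4-fold limit over input left 3 genes higher (Esrrb, Prdm14 and Tbx3) and 1 lower (Klf2). Fibroblast markers moved the other way between these fractions: 11 of 12 were lower in D16S+ than in D16S-, and the summed score of the list was 72.0 against 743. The part of remaining fibroblasts in the fraction differences was not tested.

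**Figure D4:**
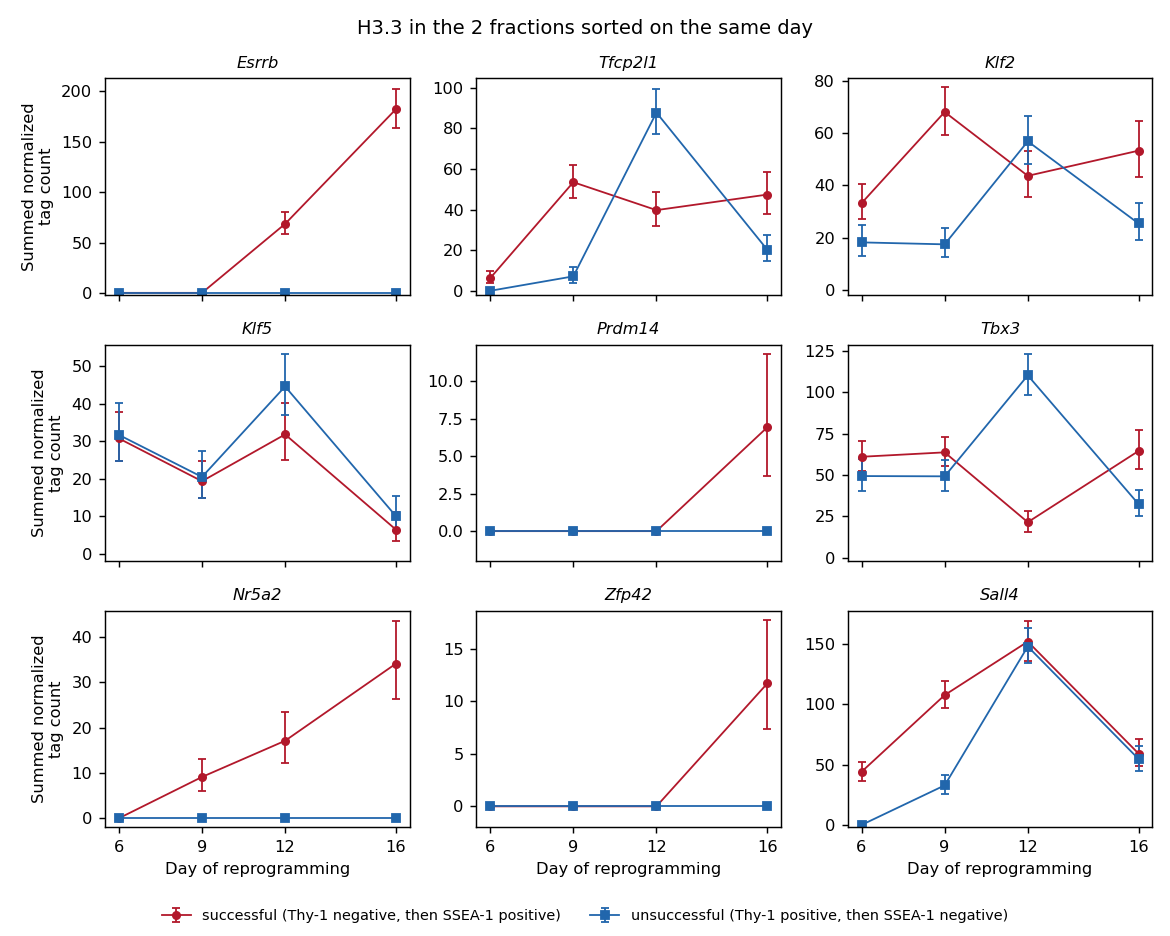
H3.3 score (tags per 10 M) of 9 genes by day in the successful (red) and unsuccessful (blue) fractions, 1 library per point, with 95% Poisson intervals for counting error; points at 0 had no peak and carry no interval. Esrrb, Nr5a2, Prdm14 and Zfp42 leave 0 in the successful fractions only. Tfcp2l1, Klf2, Klf5, Tbx3 and Sall4 have their highest unsuccessful value on day 12, where the median score of all genes (25.1) was also the highest of the unsuccessful fractions.

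H3K4me3 was on most of the 10 genes from the start. In D0, 8 of them had an H3K4me3 peak (70.2% of all genes had one), among them Tfcp2l1, Prdm14, Nr5a2 and Sall4, which had no H3.3 peak in that library; this pairing held for 12.1% of all genes. The D0 scores of these 4 were 94.1, 32.7, 122 and 115 in that order. Only Zfp42 and Nr0b1 lacked H3K4me3 in D0 and D3. An H3K4me3 peak in all 7 libraries was found on 7 genes, Esrrb, Tfcp2l1, Klf2, Klf5, Tbx3, Nr5a2 and Sall4, and on 49.2% of all genes.

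H3K4me3 was higher in iPSCs than in D0 on 6 genes and lower on 0, against 4.06% of all genes higher and 52.1% lower. The 6 were Esrrb, Tfcp2l1, Nr5a2, Zfp42, Sall4 and Nr0b1. Scaled as above, 9 were higher and 0 lower, with higher genes at 40.5% of all called genes in place of 7.23%. Sall4 had 115 and 489, a ratio of 4.26 (3.78 to 4.79), with 350 in D6T- and 403 in D9T- on the way. In D6T- 3 genes (Zfp42, Sall4 and Nr0b1) were higher than in D0 and 0 lower, beside 4.28% and 5.61% of all genes, and in D3 0 were higher or lower, beside 1.05% and 7.27%. Zfp42 reached 181 in iPSCs from no peak in D0, with no peak in D3, D9T- and D16S+, 6.01 in D6T- and 46.1 in D12S+. Klf2, Klf5, Prdm14 and Tbx3 stayed within 2-fold, Tbx3 with 772 and 531.

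The values of D16S+ broke the course of H3K4me3. On all 10 genes the H3K4me3 score was lower in D16S+ than in D12S+, and Prdm14, with 86.9 in D12S+, had no peak. The fall was not particular to these genes, since the median score of all genes went from 32.5 to 7.59. The share of all genes that were lower was not counted. The D16S+ library held 15.8 M tags, the fewest of the 7, with 3.71% of them in peaks, and 51.6% of all genes had a peak in it.

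**Figure D5:**
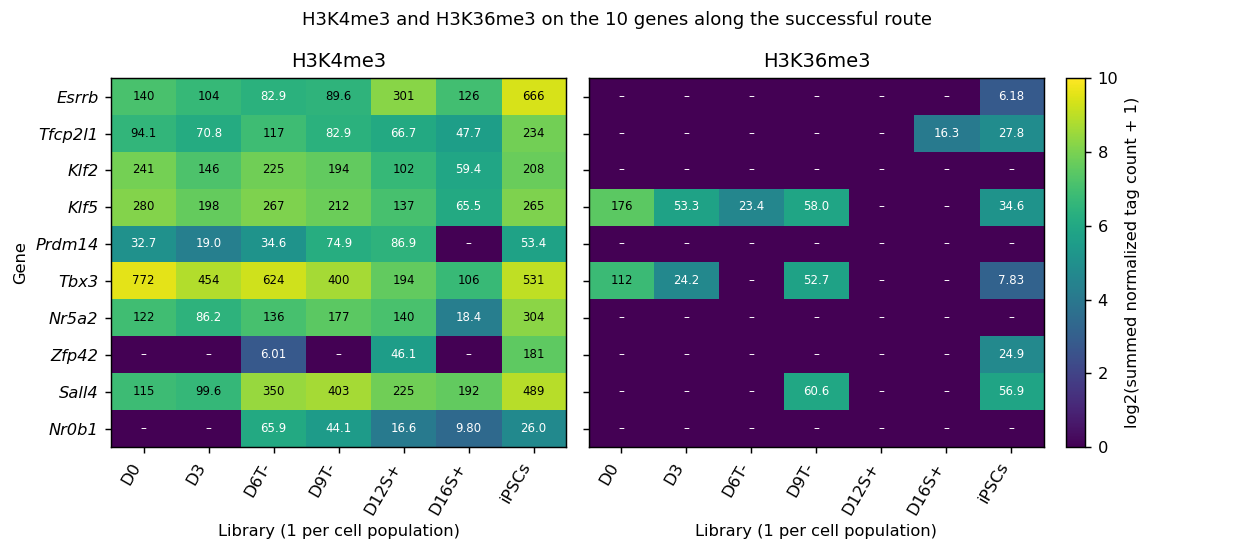
H3K4me3 (left) and H3K36me3 (right) scores of the 10 genes along the successful route, written in each cell and coloured on a log2(score + 1) scale, with a dash where no peak was called. H3K4me3 is on 8 genes in D0, and H3K36me3 is on 2 genes in D0 and 6 in iPSCs.

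H3K36me3 peaks lay on 2 of the 10 genes in D0 (49.7% of all genes) and on 6 in iPSCs (34.7%). In D0 it lay on Klf5 (176) and Tbx3 (112), and in iPSCs on Esrrb (6.18), Tfcp2l1 (27.8), Klf5 (34.6), Tbx3 (7.83), Zfp42 (24.9) and Sall4 (56.9). Of these, 4 were called higher and 2 (Klf5 and Tbx3) lower in iPSCs than in D0, against 3.5% and 46.9% of all genes. Scaled, 5 were higher and 0 lower, with higher genes at 34.6% of all called genes in place of 6.95%, so the lower calls of Klf5 and Tbx3 depend on the scaling. Sall4 also had 60.6 in D9T- and Tfcp2l1 16.3 in D16S+. No H3K36me3 peak was called on Klf2, Prdm14, Nr5a2 and Nr0b1 in any of the 7 libraries. The share of all genes without one in all 7 was not counted. Single H3K36me3 libraries had a peak on only 23.5% to 50.3% of all genes, so this may be common.

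Ordered by the earliest library of the route with a peak, H3K4me3 came before H3.3 on 6 of the 10 genes (17.7% of the 17950 genes with either mark). Both marks began in the same library on 4 genes (73.4%), all of them in D0, and H3.3 came before H3K4me3 on 0 (8.88%). The 6 were Tfcp2l1, Prdm14, Nr5a2, Zfp42, Sall4 and Nr0b1, of which Nr0b1 had no H3.3 peak in any library. For Tfcp2l1, Prdm14, Nr5a2 and Sall4 the order rests on the missing H3.3 peak in D0. The other fibroblast library, MEF, had H3.3 peaks on Tfcp2l1 (7.71), Nr5a2 (12.1) and Sall4 (5.68). The earliest H3K4me3 peak of Zfp42 was weak (6.01 in D6T-), and D9T- had none. With a flank of 5 kb, the genes with an earliest H3.3 peak after D0 went from 5 to 4, because Sall4 then had a peak in D0. In D0 the H3.3 list was the longer, with 89727 peaks against 41015. H3K4me3 nevertheless had a peak on more genes in D0 (70.2% against 61.8%) and more of its tags in peaks (30.4% against 19.1%). The part of these library differences in the order was not tested. H3.3 and H3K4me3 peaks shared 51.5% of the H3.3 length on these genes in D0, 36.2% in D12S+, 22.4% in D16S+ and 51.2% in iPSCs.

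In transdifferentiation few H3.3 peaks were called on the genes at the end point, in libraries with 1.65% (cKit+) and 2.31% (cKit-) of tags in peaks. In MEF 7 of the 10 had a peak (53.2% of all genes) and in D4 6 had one (72.1%). Between MEF and D4, 6 genes were higher and 1 (Nr5a2) lower, while 69.4% of all genes were higher and 0.97% lower, so the D4 values followed those of the genome. Between MEF and cKit+, 0 genes were higher and 7 lower, beside 6.03% and 43.3% of all genes. In cKit+ and in cKit- cells Klf2 was the only gene left with a peak, with 5.50 and 7.66, whereas 33.2% and 31.8% of all genes had one. Between cKit+ and cKit- 0 genes passed 2-fold either way, beside 12.7% of all genes higher and 15.3% lower.

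In D4 cells most of the H3.3 score on Esrrb lay in another part of the gene than in pluripotent cells. Its score there was 148, beside 182 in D16S+, and 128 of it lay before the 60.5 kb start, chiefly in a peak with a score of 93.1 at 33 to 39 kb, and 10.98% lay past the 109 kb start.

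Levels between genes can be compared per length of the window. In iPSCs the H3.3 score per kb of window was highest on Sall4 (9.92), followed by Klf5 (6.65), Tbx3 (6.49), Zfp42 (5.82), Klf2 (3.99), Esrrb (3.43), Tfcp2l1 (2.43), Prdm14 (2.11) and Nr5a2 (1.505). In ESD3 Zfp42 led with 10.5, ahead of Tbx3 (6.48) and Sall4 (5.92). Esrrb, first by its sum, thus came late by its density, because its window is 163 kb long. Peaks covered 78.8% of the Sall4 window and 13.1% of the Nr5a2 window in iPSCs.

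The median input tags per kb under the peaks of the 10 genes, relative to the median of all peaks of the same library, was 0.874 in D0, 1.06 in D16S+, 1.02 in iPSCs and 1.08 in ESD3 for H3.3. The highest value under any of these peaks was 2.26 times the library median in D16S+ and 2.06 times in D9T-, and at most 1.80 times in the other H3.3 libraries.

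The course of H3.3 on the other genes of the network was counted over lists. Between iPSCs and D0, 17.4% of all genes were higher and 29.4% lower. Of 20 partner and target genes, 18 were higher in iPSCs than in D0 and 0 lower, with a median score of 138 against 3.16. The 18 include Pou5f1 and Sox2, which were also delivered by virus. Nanog had 218 in iPSCs and no peak in D0. Of 7 genes of LIF signalling, which brings the outside cue to Tfcp2l1 and the Klf factors, 1 (Klf4, which was also delivered) was higher and 3 (Il6st, Jak1 and Stat3) were lower. Stat3 had 511 in D0 and 82.9 in iPSCs. Of 9 genes of the Wnt and Erk side, 2 (Tcf7l1 and Fgf4) were higher and 4 lower. In lists this short, the counts of LIF signalling and of the Wnt and Erk side lay near the shares of all genes.

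Of 11 formative and primed genes, which come up as the naive state is left, 7 were higher in iPSCs and 2 lower, with medians of 15.2 and 0. The shares of all genes were 17.4% and 29.4%. Some of these rested on little: Fgf5 had 5.35 and Otx2 5.22 in iPSCs, close to 4.37, the lowest score of any iPSC H3.3 peak. On day 16, 10 of the 20 partner and target genes were higher in the successful fraction and 0 lower, and all 7 LIF signalling genes were lower, beside 5.94% of all genes higher and 42.4% lower.

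The genes outside the list whose H3.3 course over the 12 reprogramming libraries was most like the mean course of the 10 were Fbxo36 (Pearson r = 0.968), Izumo2 (0.961), Padi2 (0.960), Fam169a (0.953) and Olfr1388 (0.947), out of 14495 genes with a peak in at least 4 libraries. These correlations on log2(score + 1) are a description, since the libraries share depth and enrichment across genes. Among the 10 genes, the correlation with the mean course, of which each is a part, was highest for Nr5a2 (0.949) and Prdm14 (0.908) and was -0.163 for Klf2. Fbxo36 had 53.7 in D0 and 527 in iPSCs, and Padi2 had no peak in D0 and 70.7 in iPSCs.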

How the data were processed

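Chromatin immunoprecipitation of 3 marks gave 30 libraries with peak lists, 1 per group, and 16 input libraries that were not analysed on their own. Per the paper's methods and the submitters' processing notes, the authors mapped reads to mm9 with STAR, kept reads at a single locus and called peaks with HOMER; versions are not given in the sources used here. Per the file headers, each library had its own peak calling against input, in HOMER's histone mode and with a local filter. The deposited score is a signal: tags in the peak, brought by the authors to a library of 10 M tags, with no input subtracted. The deposited fold over input is a ratio, at least 2 for H3.3 and 4 for the other marks. The deposited p-value against input, at most 0.0001, is not adjusted.

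Peaks overlapping a gene by at least 1 bp, with 1000 bp on either side, were summed with Python 3.11.15, pandas 2.3.3 and scipy 1.17.1. Tfcp2l1, absent by symbol, was matched through RefSeq synonyms. A peak that reaches past the window counted whole. Peak places came from GENCODE vM1, a start site meaning within 500 bp of a transcript start. Intervals are Poisson for scores and exact binomial for ratios, on tags recomputed from score and depth, because the deposited tag column is scaled to input. Summation was tested on simulated data. Depth was 13.2 to 91.8 M tags, unequal between libraries, and affects which peaks were called. The 10 genes, all of which are named, the other lists, the motifs and the rules were chosen with earlier results of these data known; the 5 genes most alike in course were named by rank of Pearson r. Alternatives were an equal number of peaks per library, a 4-fold limit over input, other windows, 3-fold calls and scaling to the summed peak score. The MEF and ESD3 substitutions, the map of Esrrb by its transcript starts, and the combination of marks shown by Nr0b1 were added after seeing the data.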

Additional observations from a re-analysis of the deposited data

How the results depend on the processing

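Of the main counts recomputed under an alternative, 60 stayed within 1.5 times and 11 did not. For an equal number of peaks, each list was shortened to its best peaks, as many as the shortest list of its set held. The H3.3 lists of reprogramming (34062 peaks kept) and of transdifferentiation (25637) were separate sets. The genes with an H3.3 peak then went from 4 to 2 in D0 and from 7 to 4 in MEF. The genes higher in the successful fraction on day 6 went from 2 to 1, and those with higher H3K36me3 in iPSCs from 4 to 2. When peaks had to exceed input 4-fold, 5 genes in place of 9 had a peak in iPSCs, 3 in place of 7 were higher in iPSCs than in D0, and 2, 4 and 3 genes were higher in the successful fraction on days 9, 12 and 16, in place of 4, 2 and 6. Under the same limit 3 genes were lower in iPSCs, and 1, 2, 1 and 1 were lower in the successful fraction on days 6, 9, 12 and 16, in place of 0, 0, 2 and 0; the iPSCs minus D0 difference went from 546 to 15.9 for Esrrb and from 306 to 16.9 for Sall4, and to 0 for Tfcp2l1 and Zfp42. Under that limit the iPSCs minus D0 difference of Klf5 changed sign, to -13.7, because no Klf5 peak of iPSCs reached it. Scaling to the summed peak score of each library gave 5 genes higher in D12S+. Counting MEF in place of D0, chosen after seeing the data, gave 7 genes with a peak.

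The same scaling moved the median log2 ratio of all genes, for H3.3 from -0.53 to -0.08 between iPSCs and D0, from 0.91 to 0.09 on day 6, from 0.31 to 0.02 on day 9, from -1.74 to -0.07 on day 12 and from -1.44 to -0.12 on day 16, for H3K4me3 from -1.38 to -0.13 and for H3K36me3 from -3.19 to 0.25. No paired analysis was possible because every group had 1 library, and for the same reason no library could be left out.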
